A study of Homo sapiens with 24 samples.

Results

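The genes described here are 36 autophagy and lysosome genes, chosen by a list of symbols that includes LAMP3 and followed through every condition of 2 RNA-seq experiments in LNCaP cells. All 36 symbols were found among the 22227 genes of the ligand tables and among the 23028 genes of the siRNA tables. A filter on low values kept 35 of the 36 in the ligand experiment, where LAMP3 fell below it, and 36 of 36 in the siRNA experiment, out of 15555 and 20369 genes tested. The experiments addressed which genes the antiandrogen enzalutamide raises in a prostate cancer line and whether the transcription factor GATA2 is needed for that response.

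LNCaP is a human prostate cancer line that responds to androgens, so every replicate is a culture of 1 line, called a biological replicate in the labels. All cells had spent 3 days in medium free of phenol red with charcoal-stripped serum, which is depleted of steroids. In the ligand experiment they received vehicle, 10 nM of the androgen DHT (dihydrotestosterone) or 10 µM enzalutamide (MDV in the labels), an antagonist of the androgen receptor. The ligands were given for 4 h or 24 h, with 2 replicates a condition. No time was given for the vehicle cells, so each comparison with vehicle used the same 2 vehicle libraries. The labels list 4 vehicle replicates. The columns, however, name replicate 1 under each of the prefixes ZC1, ZC2 and ZC3, and replicate 2 under ZC1 alone. What the prefixes mark is not stated in the labels or the column names. Below, set or sequencing set means only a shared prefix. The 3 columns of replicate 1 differed from each other by a mean chi-square per gene of 1.53 to 1.562 and from replicate 2 by 3.555 to 3.737, and were summed as runs of 1 sample. Neither the labels nor the column names say whether these columns are runs or separate cultures. With every column as a sample the members called against vehicle were 8 and 17 for enzalutamide and 1 and 22 for DHT at 4 h and 24 h, in place of 6, 17, 0 and 21 in edgeR. The 10 libraries held between 38894876 and 59985287 estimated counts.

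In the siRNA experiment, cells were transfected with a non-targeting siRNA pool (siControl) or a pool against GATA2 (siGATA2). Vehicle or 25 µM enzalutamide was added 72 h later for 24 h, with 3 replicates in each of 4 conditions. A pool was used and silencing was partial, so the siGATA2 cells are cells with less GATA2 transcript and not cells without it. The values of this experiment are RPKM, reads scaled to gene length and to the mapped reads of the library. The number of reads per library is not in the files, but the ratios between them could be read from the values and ran from 0.844 to 1.1, with siControl vehicle replicate 1 set to 1.

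Autophagy encloses cytoplasm in a double membrane, the autophagosome, and delivers it to the lysosome for breakdown. Proteins of the ATG8 family are conjugated to lipid on the growing membrane and bind receptors that carry cargo, while lysosomes supply an acid lumen, hydrolases and heavily glycosylated membrane proteins such as the LAMP family. The transcription factors TFEB and TFE3 switch on many of these genes when nutrients are short, and prostate cancer cells are known to use autophagy under loss of androgen signalling.

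GATA2 was read first, as the check on silencing. Its RPKM was 83.8, 77.0 and 86.1 in siControl vehicle cells and 54.3, 53.4 and 46.6 in siGATA2 vehicle cells. Under enzalutamide it was 128, 132 and 128 in siControl cells and 60.1, 64.7 and 61.5 in siGATA2 cells. Each siGATA2 library lay below every siControl library. The log2 fold change between siGATA2 and siControl was -0.68 (SE 0.0594) in vehicle and -1.06 (SE 0.0594) under enzalutamide, with limma adjusted p of 3.12e-06 and 1.07e-07. GATA2 itself rose with enzalutamide in siControl cells, by a log2 fold change of 0.65 (limma adjusted p 1.17e-05).

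GATA2 moved the other way in the ligand experiment. It was at 223 and 237 CPM (counts scaled by library size and TMM factor) in vehicle, 184 and 167 after 4 h of enzalutamide and 201 and 203 after 24 h. The log2 fold changes were -0.39 and -0.19, with edgeR adjusted p of 0.000198 and 0.00891. With DHT they were -0.31 at 4 h and -0.33 at 24 h (edgeR adjusted p 0.000852 and 7.03e-05). GATA2 was thus below vehicle with both ligands. The experiments differ in dose and in transfection, and the difference between them was not tested.

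The identity of the cells was read from marker lists. All 10 LNCaP markers were found with a mean of at least 1 RPKM, and KLK3 was the most abundant by the mean over the 12 libraries, 280 RPKM. KLK3 differed widely between groups, with 816, 765 and 793 RPKM in siControl vehicle, 307, 294 and 256 in siControl enzalutamide and between 17.6 and 26.3 in the siGATA2 libraries. FOLH1, HOXB13, FOXA1, KRT8, KRT18 and STEAP2 stood above KLK3 in siGATA2 cells, each at 102 RPKM or more in every library. The summed levels of the 10 were 1751, 1694 and 1733 RPKM in siControl vehicle, 1131, 1110 and 1080 in siControl enzalutamide, 1064, 1080 and 1090 in siGATA2 vehicle and 1062, 1043 and 1063 in siGATA2 enzalutamide. LAMP3 is also known as a marker of mature dendritic cells, and 9 of 10 other markers of those cells were found. The 2 of these at 1 RPKM or more were FSCN1 and CD83, which other cell types also express, and FSCN1 was the most abundant at a mean of 11.2 RPKM. The summed level of this list was 19.2, 17.8 and 19.1 RPKM in siControl vehicle libraries, 15.3, 15.2 and 14.6 in siControl enzalutamide, 14.5, 14.4 and 11.8 in siGATA2 vehicle and 11.6, 11.8 and 11.2 in siGATA2 enzalutamide. The defining markers CCR7, ITGAX, CD80 and CD86 stayed at or below 0.0960, 0.0341, 0.0146 and 0.00986 RPKM in every siRNA library.

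All 6 macrophage and leukocyte markers were below a mean of 1 RPKM, with ITGAM most abundant at a mean of 0.132 RPKM. Their sums were 0.186 to 0.249 RPKM in the siControl libraries and 0.266 to 0.313 in the siGATA2 libraries, without overlap. Of 6 fibroblast markers, COL1A1 was at a mean of 13 RPKM and the other 5 were below 1 RPKM, with sums of 10.9 to 11.8 RPKM in siControl vehicle, 12.7 to 14 in siControl enzalutamide, 13.1 to 16.6 in siGATA2 vehicle and 14.2 to 16.3 in siGATA2 enzalutamide. Whether this bears on the siGATA2 results below was not tested. None of the markers found was at 0 in all siRNA libraries. The markers CCL19 and CD1A were missing from the ligand tables, and CD1A from the siRNA tables as well.

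In siControl vehicle cells the 36 genes had a median level of 17.4 RPKM, against 2.68 RPKM over all genes tested. The shares of all genes given below were not matched for level. GABARAP stood highest at 316 ± 7.89 RPKM (SD, n = 3), followed by SQSTM1 at 137 ± 4.77, CTSD at 112 ± 6.65 and GABARAPL2 at 107 ± 0.777. CTSD and GABARAPL2 did not differ beyond their spread, with libraries at 117, 104 and 115 RPKM against 106, 106 and 107. These 4 were the members above 100 RPKM. At the other end, ATG9B was at 1.64 ± 0.0459 RPKM and LAMP3, the only member below 1 RPKM, at 0.0187 ± 0.0102.

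Promoters were searched for short motifs. RefSeq promoter windows of 300 bases, from 250 bases before to 50 bases after each start site on GRCh38.p14, were matched for 29 of the 36 members, with 37 start sites. ATG4D, ATP6V1H, CTSB, HEXA, LAMP2, LAMP3 and MAP1LC3A had no entry. On either strand, CACGTG, the core recognised by TFEB and TFE3, was present in windows of 5 members (ATG14, ATG3, CTSD, LAMP1 and MCOLN1) and in 7.26% of all 35116 windows. The longer form TCACGTGA, which contains it, was present for ATG3, LAMP1 and MCOLN1 and in 0.980% of windows. TGACNNNGC, the core of the antioxidant response element, was present for ATG9B, CTSD, CTSL, LAMP1 and MAP1LC3B and in 13.3% of windows. The GATA motif AGATAA was present for ATG13, ATG9B and NBR1 and in 10.3%. TGATGCAA, the joint element of ATF4 and C/EBP factors, was in 0 member windows and 0.866% of all.

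A match is a description of letters and no evidence that a factor binds. The windows of 4 members that the results below return to are shown, with the matches to these motifs in capitals. LAMP1 (chr13:113296989-113297288, plus strand) held 6 matches of CACGTG, 2 of them within TCACGTGA, and 1 match of TGACNNNGC that overlaps a CACGTG. MCOLN1 (chr19:7522374-7522673, plus strand) held 2 matches of TCACGTGA. CTSD (chr11:1763878-1764177, minus strand) held 1 match of CACGTG and 2 of TGACNNNGC, and MAP1LC3B (chr16:87392086-87392385, plus strand) held 1 match of TGACNNNGC.
LAMP1: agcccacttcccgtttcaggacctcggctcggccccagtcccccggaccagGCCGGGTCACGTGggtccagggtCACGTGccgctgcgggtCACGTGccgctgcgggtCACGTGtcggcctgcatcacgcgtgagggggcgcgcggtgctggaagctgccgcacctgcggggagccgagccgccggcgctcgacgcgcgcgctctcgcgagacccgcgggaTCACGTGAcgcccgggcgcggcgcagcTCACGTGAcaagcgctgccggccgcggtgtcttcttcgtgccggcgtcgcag
MCOLN1: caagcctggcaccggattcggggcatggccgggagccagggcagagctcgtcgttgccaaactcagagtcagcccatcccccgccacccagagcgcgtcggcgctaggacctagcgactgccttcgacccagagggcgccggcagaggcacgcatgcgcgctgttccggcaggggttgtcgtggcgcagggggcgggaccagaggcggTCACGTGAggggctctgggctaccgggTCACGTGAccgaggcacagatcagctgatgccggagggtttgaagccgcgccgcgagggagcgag
CTSD: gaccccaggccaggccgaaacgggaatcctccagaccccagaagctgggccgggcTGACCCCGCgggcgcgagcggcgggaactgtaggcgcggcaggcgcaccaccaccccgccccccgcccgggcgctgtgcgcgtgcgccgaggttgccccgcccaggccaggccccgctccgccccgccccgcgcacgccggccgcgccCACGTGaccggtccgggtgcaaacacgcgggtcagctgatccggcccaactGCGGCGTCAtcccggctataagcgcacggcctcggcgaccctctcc
MAP1LC3B: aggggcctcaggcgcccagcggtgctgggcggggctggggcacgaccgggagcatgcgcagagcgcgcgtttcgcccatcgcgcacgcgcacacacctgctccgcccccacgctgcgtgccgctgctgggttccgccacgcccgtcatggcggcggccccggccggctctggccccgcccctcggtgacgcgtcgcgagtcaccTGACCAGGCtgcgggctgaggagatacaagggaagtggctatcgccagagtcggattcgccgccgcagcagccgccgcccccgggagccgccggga

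Enzalutamide at 10 µM raised a few members at 4 h and more at 24 h. At 4 h, 6 of 35 members rose against vehicle (adjusted p below 0.05 over all genes tested, the rule for a call throughout), where 6.94% of all genes did. They were HEXA, LAMP2, MAP1LC3B, NBR1, SQSTM1 and ULK2, with log2 fold changes between 0.12 and 0.21. The LAMP2 call, at 0.12, was lost under 13 alternatives, with DESeq2 (adjusted p 0.0561), the replicate block (edgeR adjusted p 0.0736) and 7 of the 10 libraries left out among them, down to 0.07 without enzalutamide 4 h replicate 2 (edgeR adjusted p 0.344). In edgeR 0 members fell, where 6.68% of all genes did. At an unadjusted p below 0.05, 11 members were higher and 0 lower, where 27.4% of all genes passed in either direction, and DESeq2 called 4 members higher and 0 lower. The median log2 fold change was 0.06 over the members and 0.001 over all genes. Rises over all genes at 4 h were also fewer within the sequencing set and with only the libraries compared, as given in the closing section. The 4 h count of members rested on few libraries. The count was 2 without vehicle replicate 1, 2 against the vehicle run of the same sequencing set, and 0 in edgeR when only the 4 libraries compared entered the fit.

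At 24 h, 15 of 35 members rose, where 16.4% of all genes did, and ATG3 and ATG4D fell, where 17.0% of all genes did. The members that rose covered ATG8 proteins (GABARAPL1, MAP1LC3A and MAP1LC3B), both cargo receptors (SQSTM1 and NBR1), all 4 hydrolases (CTSB, CTSD, CTSL and HEXA) and the membrane proteins LAMP1 and LAMP2, along with ATG13, ATG14, ULK2 and WIPI1. Changes were small. The largest rise was 0.46 on the log2 scale, for SQSTM1, and the median was 0.116 over the members and 0.015 over all genes. Rises over all genes at 24 h were fewer when only the vehicle run of the same set was used, as given in the closing section. Both 24 h enzalutamide libraries came from the set named ZC3, and against the vehicle run of that set alone 10 members rose and 0 fell in edgeR. Without enzalutamide 24 h replicate 1 or replicate 2, 11 and 8 members were called in all. The 2 falls became 4 without vehicle replicate 1 and 1 without vehicle replicate 2, without enzalutamide 24 h replicate 2 or with the ZC1 run as vehicle replicate 1.

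DHT at 10 nM had no called member at 4 h, and lowered 18 members at 24 h. At 4 h edgeR called 0 of 35 members in either direction, where 4.66% of all genes rose and 2.11% fell. At an unadjusted p below 0.05, 2 members were higher and 3 lower, where 19.0% of all genes passed in either direction, and DESeq2 called 0 members. At 24 h 18 of 35 members fell, where 23.2% of all genes did, and 3 rose (ATG9B, CTSL and MCOLN1), where 26.9% of all genes did. The 18 included all 5 ATG8 proteins and both cargo receptors. Of these, the MAP1LC3A call was lost with DESeq2 (adjusted p 0.0564) and without DHT 24 h replicate 1 or vehicle replicate 2 (edgeR adjusted p 0.154 and 0.107). The GABARAPL2 call was lost without DHT 24 h replicate 2 or vehicle replicate 1 (edgeR adjusted p 0.160 and 0.170), and its value of -0.16 was -0.10 without that DHT library. The median was -0.144 over the members and 0.001 over all genes, with values from -0.54 for MAP1LC3B to 0.87 for ATG9B. Without DHT 24 h replicate 1 the ATG9B, CTSL and MCOLN1 calls were all lost, at values of 0.87, 0.12 and 0.26. The number of rises was 1 with the ZC2 run as vehicle replicate 1, where the ATG9B and MCOLN1 calls were lost.

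The direct comparison of the ligands uses no vehicle library. Both DHT 4 h libraries carry the prefix ZC1 and both enzalutamide 4 h libraries the prefix ZC2. At 4 h, ligand and whatever the prefix marks cannot be told apart. At 4 h enzalutamide cells were higher than DHT cells for 4 of 35 members (ATG3, MAP1LC3B, NBR1 and SQSTM1), where 7.28% of all genes were, and lower for TFEB, where 8.49% were. DESeq2 called 3 members at 4 h. The MAP1LC3B call was lost with only the conditions compared (edgeR adjusted p 0.0542) and without either DHT 4 h library (edgeR adjusted p 0.123 and 0.0962). The TFEB call, at -0.38, was lost under 5 alternatives, among them DESeq2 (adjusted p 0.0751) and DHT 4 h replicate 1 left out (-0.27, edgeR adjusted p 0.209). Without DHT 4 h replicate 1, 2 members were called and without replicate 2, 3. At 24 h 23 of 35 members were higher, where 33.6% of all genes were, and ATG4B, ATG4D, MCOLN1 and TFEB were lower, where 31.3% were. The 4 lower became 2 without enzalutamide 24 h replicate 2. The median difference at 24 h was 0.249 over the members and 0.033 over all genes.

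The times were compared directly for each ligand. For enzalutamide this sets ZC3 against ZC2, and for DHT it sets 1 library of ZC2 and 1 of ZC3 against ZC1. Time and whatever the prefix marks cannot be told apart. From 4 h to 24 h of enzalutamide 7 of 35 members rose (CTSB, CTSL, GABARAP, GABARAPL1, MAP1LC3A, MAP1LC3B and SQSTM1), where 11.7% of all genes did. ATG3 and WIPI2 fell, where 12.9% did. The CTSL and MAP1LC3B calls were lost under 14 and 12 alternatives, among them DESeq2 (adjusted p 0.124 and 0.122) and the replicate block (edgeR adjusted p 0.0571 and 0.0527). Without enzalutamide 24 h replicate 1, replicate 2 or enzalutamide 4 h replicate 2, 4, 3 and 5 members were called in all. From 4 h to 24 h of DHT 17 of 35 members fell, where 23.5% of all genes did, and 5 rose (ATG16L1, ATG4B, ATG9A, ATG9B and CTSL), where 26.3% did. These rises numbered 2 and 1 without DHT 24 h replicate 1 or 2, and 0 and 3 without DHT 4 h replicate 1 or 2. With 2 replicates a condition, a library left out leaves a lone sample, which the fit assumes to vary like the others.

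In siControl cells 25 µM enzalutamide raised 19 of 36 members, where 17.7% of all genes rose, and lowered 7, where 24.4% fell. The members that rose included all 5 ATG8 proteins, both cargo receptors, all 4 hydrolases and LAMP1, LAMP2 and LAMP3. Those that fell were ATG10, ATG2A, ATG3, ATG4B, ATG9B, BECN1 and MCOLN1. The median log2 fold change was 0.103 over the members and -0.023 over all genes. By a second rule, a change above 2-fold and an unadjusted p under 0.05, LAMP3 was the only member called up, where 0.599% of all genes were. Of the 7 falls, 3 were called after quantile normalization and 4 after scaling to median ratios.

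In siGATA2 cells limma called 0 of 36 members with enzalutamide in either direction. Few genes passed in all, with 0.221% of them up and 0.191% down, so a count of 0 is near what the whole table gave. At an unadjusted p below 0.05, 1 member was higher and 1 lower, where 10.8% of all genes passed in either direction, and no count tool could be run on RPKM. Member log2 fold changes ran from -0.21 for ATG9B to 0.09 for SQSTM1. The difference between the enzalutamide effects was tested as an interaction. It was negative, meaning a smaller or more negative effect in siGATA2 cells, for 15 of 36 members, where 10.8% of all genes were, and positive for BECN1 and MCOLN1, where 15.0% were. The median interaction was -0.107 over the members and 0.015 over all genes. LAMP3 was the only member with a more than 2-fold interaction at an unadjusted p below 0.05, where 0.623% of all genes were lower by that rule.

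Silencing of GATA2 alone moved most of the set. In vehicle 24 of 36 members were higher in siGATA2 than in siControl cells, where 24.2% of all genes were, and 10 were lower, where 31.4% were. The median log2 fold change was 0.25 over the members and -0.027 over all genes. Under enzalutamide 18 members were higher, where 26.3% of all genes were, and 8 lower, where 28.1% were. More than 2-fold lower at an unadjusted p below 0.05 were LAMP3 and ATG16L1, where 3.78% of all genes were. The comparisons within the siRNA experiment share libraries with each other. In bulk RNA, fewer cells carrying a transcript and less transcript per cell cannot be told apart.

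**Figure D1:**
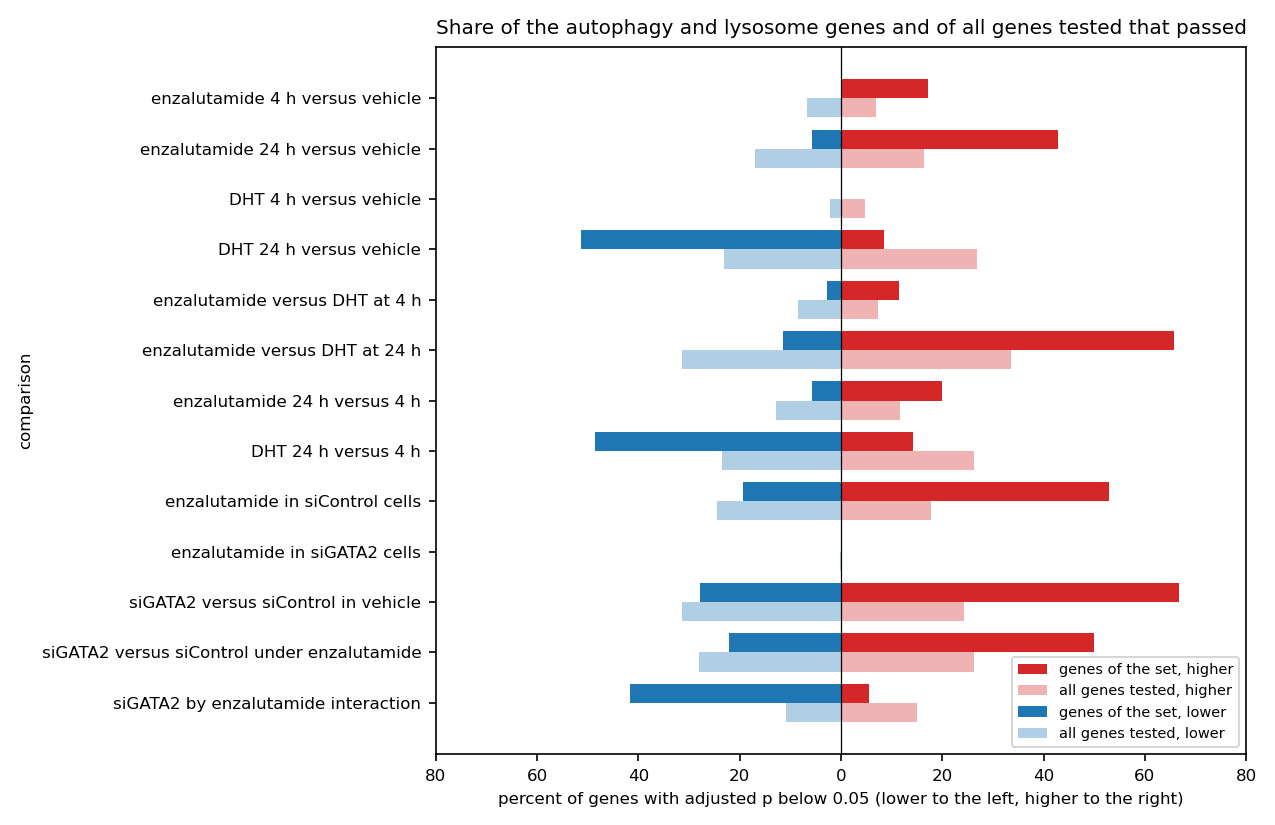
Percent of genes with an adjusted p below 0.05 in each comparison, lower to the left and higher to the right, for the autophagy and lysosome genes (full colour; 35 or 36 tested) and for all genes tested (pale colour; 15555 or 20369). The members exceed the whole table on the upper side for enzalutamide at 24 h (42.9% against 16.4%) and on the lower side for DHT at 24 h (51.4% against 23.2%). The whole table was not matched to the members for level.

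**Figure D2:**
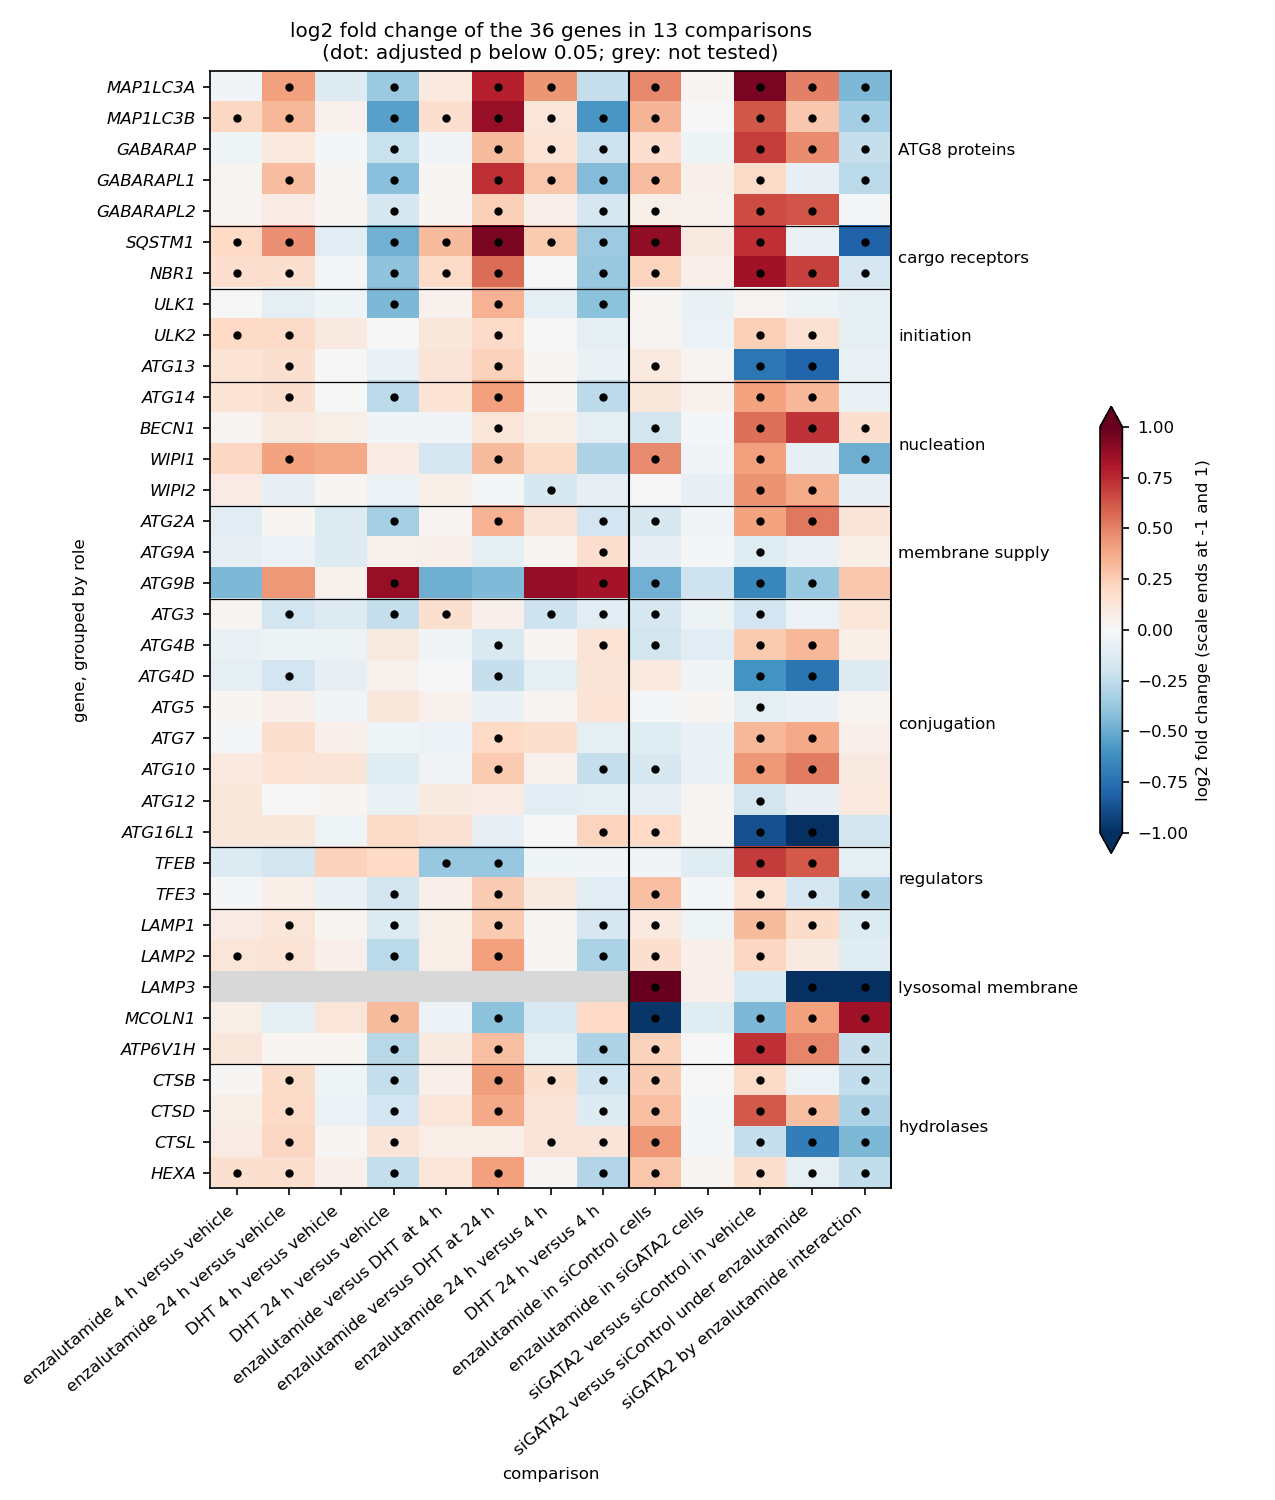
Log2 fold change of each of the 36 genes, grouped by role, in the 13 comparisons, with a colour scale that ends at -1 and 1; a dot marks an adjusted p below 0.05 and grey marks LAMP3 where it was not tested. The column for enzalutamide in siGATA2 cells is pale and holds no dot, and the siControl column runs from -0.97 for MCOLN1 to 1.97 for LAMP3.

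The ATG8 proteins coat the autophagosome membrane and bind cargo receptors. MAP1LC3B, which encodes the most used marker of autophagosomes, was at 67.3 and 66.8 CPM in vehicle, 78.0 and 76.7 after 4 h and 83.5 and 85.1 after 24 h of enzalutamide, 68.7 and 69.2 after 4 h and 46.9 and 45.4 after 24 h of DHT. The enzalutamide libraries stood above the vehicle libraries at both times and the DHT 24 h libraries below them. In edgeR the log2 fold change against vehicle was 0.21 (SE 0.0390, adjusted p 0.00458) at 4 h and 0.33 (SE 0.0387, adjusted p 2.68e-05) at 24 h of enzalutamide. It was -0.54 (SE 0.0402, adjusted p 1.70e-07) at 24 h of DHT. The 4 h rise had edgeR adjusted p of 0.0616 and 0.0668 when only the libraries compared or the vehicle run of the same set were used, in a range of values from 0.19 to 0.20.

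In the siRNA experiment MAP1LC3B was at 19.2, 20.0 and 19.8 RPKM in siControl vehicle, 25, 23.5 and 26.4 in siControl enzalutamide, 30.4, 29.8 and 30.5 in siGATA2 vehicle and 30.9, 29.4 and 30.4 in siGATA2 enzalutamide. The siControl groups did not overlap, both siGATA2 groups lay above them, and the siGATA2 groups overlapped each other. Enzalutamide raised it by 0.34 (SE 0.0380) on the log2 scale in siControl cells, with a limma adjusted p of 4.65e-05, and the interaction was -0.34 (limma adjusted p 0.00118). In vehicle its level was 0.62 higher in siGATA2 than in siControl cells (limma adjusted p 2.06e-07). Its promoter, printed above, holds a single match of TGACNNNGC.

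MAP1LC3A, a close relative, was low in RPKM. It was at 6.90, 7.30 and 8.53 RPKM in siControl vehicle, 11.1, 10.6 and 10.0 in siControl enzalutamide, 16.0, 14.6 and 13.5 in siGATA2 vehicle and 14.7, 16.3 and 14.1 in siGATA2 enzalutamide. The siControl groups did not overlap and the siGATA2 groups overlapped at the top of the range. In limma the log2 fold changes were 0.48 for enzalutamide in siControl cells (adjusted p 0.00122), 0.95 for siGATA2 against siControl in vehicle (adjusted p 4.44e-06) and -0.45 for the interaction (adjusted p 0.0220). Each of 4 single libraries left out moved the interaction past the threshold, to limma adjusted p between 0.0501 and 0.0547: siGATA2 enzalutamide replicates 1 and 3, siGATA2 vehicle replicate 1 and siControl enzalutamide replicate 1. In the ligand experiment MAP1LC3A was at 5.93 and 6.63 CPM in vehicle and 8.42 and 8.23 after 24 h of enzalutamide, a log2 fold change of 0.41 (edgeR adjusted p 0.0110). That call was lost without either enzalutamide 24 h library or vehicle replicate 1, with edgeR adjusted p from 0.0534 to 0.110.

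GABARAPL1 changed at 24 h and not at 4 h. It was at 55.9 and 55.5 CPM in vehicle, 56.8 and 56.6 after 4 h and 69.5 and 68.6 after 24 h of enzalutamide, and 43.1 and 40.1 after 24 h of DHT. The 24 h enzalutamide libraries were the highest and the 24 h DHT libraries the lowest of the experiment. The step from 4 h to 24 h was 0.28 with enzalutamide and -0.43 with DHT on the log2 scale, with edgeR adjusted p of 0.000408 and 3.99e-06. In the siRNA experiment it was at 31, 31.1 and 31.2 RPKM in siControl vehicle, 39.3, 38.7 and 37.9 in siControl enzalutamide, 35.3, 37.5 and 33.6 in siGATA2 vehicle and 36.4, 36 and 37.5 in siGATA2 enzalutamide. The siControl groups did not overlap, and the siGATA2 groups did. The interaction was -0.27 (limma adjusted p 0.00315).

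GABARAP and GABARAPL2 were the most abundant of the family, and both were higher in siGATA2 cells. GABARAP was at 321, 307 and 320 RPKM in siControl vehicle, 365, 362 and 342 in siControl enzalutamide, 492, 525 and 516 in siGATA2 vehicle and 483, 494 and 500 in siGATA2 enzalutamide. Every siGATA2 library lay above every siControl library. The log2 fold change of siGATA2 against siControl in vehicle was 0.69 (limma adjusted p 1.25e-07), and that of enzalutamide in siControl cells was 0.17 (limma adjusted p 0.00494). Quantile normalization ended the enzalutamide call, at 0.06, and the interaction call, which went from -0.23 to -0.12. GABARAPL2 was 0.65 higher in siGATA2 vehicle cells (limma adjusted p 4.20e-09). Its rise of 0.06 with enzalutamide in siControl cells (limma adjusted p 0.0453) was lost under 13 of the alternatives, 9 of them single libraries left out.

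SQSTM1 (p62) and NBR1 are receptors that bring ubiquitin-tagged cargo to ATG8 proteins. SQSTM1 was at 485 and 543 CPM in vehicle, 603 and 581 after 4 h and 699 and 714 after 24 h of enzalutamide, 471 and 479 after 4 h and 366 and 373 after 24 h of DHT. The groups did not overlap, and DHT 24 h was the lowest. In edgeR the log2 fold change was 0.46 (SE 0.0444, adjusted p 4.12e-06) for enzalutamide and -0.48 (SE 0.0448, adjusted p 1.46e-06) for DHT at 24 h. The 4 h rise of 0.20 (edgeR adjusted p 0.00976) was lost without vehicle replicate 1, where it was 0.12 (edgeR adjusted p 0.0876), and with only the libraries compared in the fit (edgeR adjusted p 0.0613).

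In the siRNA experiment SQSTM1 was at 139, 132 and 140 RPKM in siControl vehicle, 242, 257 and 265 in siControl enzalutamide, 226, 227 and 230 in siGATA2 vehicle and 239, 250 and 238 in siGATA2 enzalutamide. The siControl vehicle libraries stood apart below the other 3 groups. Enzalutamide raised SQSTM1 by 0.89 (SE 0.0394) on the log2 scale in siControl cells (limma adjusted p 7.65e-08). In siGATA2 cells the 3 enzalutamide libraries were above the 3 vehicle libraries, but the log2 fold change of 0.09 did not pass (limma adjusted p 0.462). The interaction was -0.81 (SE 0.0557, limma adjusted p 7.09e-06). GATA2 silencing in vehicle came with a log2 fold change of 0.73 (limma adjusted p 7.40e-08), while under enzalutamide siGATA2 and siControl cells overlapped, at -0.07 (limma adjusted p 0.155).

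NBR1 followed the ligands in the same directions as SQSTM1, with 233 and 233 CPM in vehicle, 258 and 265 after 4 h and 259 and 263 after 24 h of enzalutamide, and 179 and 174 after 24 h of DHT. The enzalutamide libraries lay above and the DHT libraries below the vehicle libraries. In edgeR the rises were 0.17 at 4 h (adjusted p 0.00520) and 0.16 at 24 h (adjusted p 0.00166), and the fall with DHT was -0.40 (adjusted p 4.12e-07). The first was lost with only the libraries compared in the fit (edgeR adjusted p 0.0719) and the second within the sequencing set (edgeR adjusted p 0.0640). In siRNA cells it was at 47.5, 49.1 and 46.7 RPKM in siControl vehicle, 55.8, 55.4 and 55.8 in siControl enzalutamide, 83.7, 85.4 and 88.2 in siGATA2 vehicle and 89.4, 87.5 and 90.1 in siGATA2 enzalutamide. The siGATA2 libraries were all above the siControl libraries. The log2 fold change of siGATA2 in vehicle was 0.84 (limma adjusted p 1.45e-09), that of enzalutamide in siControl cells 0.22 (limma adjusted p 6.25e-05) and the interaction -0.17 (limma adjusted p 0.00707).

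**Figure D3:**
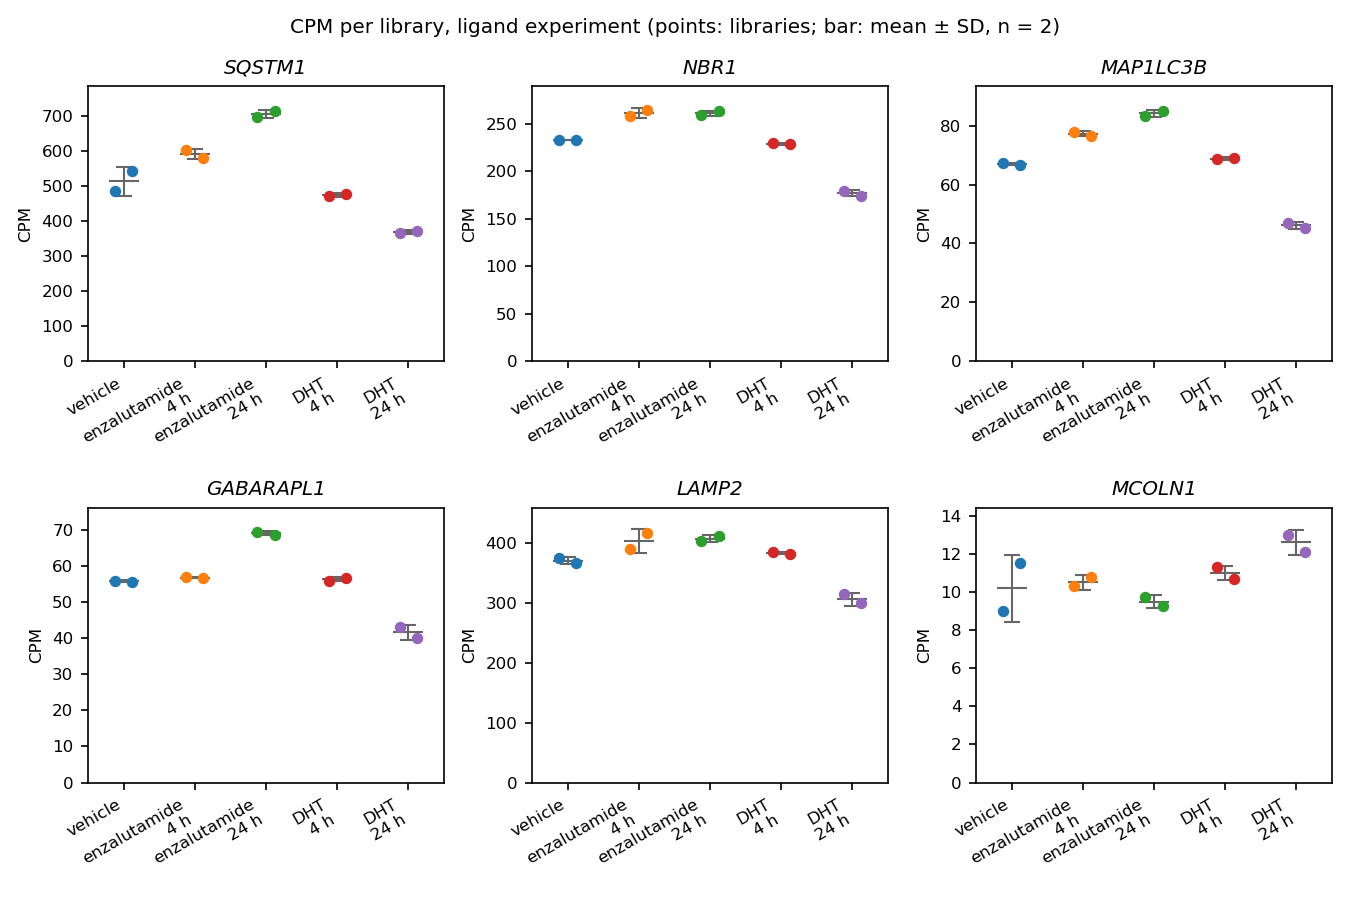
CPM of 6 members in each library of the ligand experiment, with points for libraries and a bar for the mean and SD of 2 replicates. SQSTM1, NBR1, MAP1LC3B, GABARAPL1 and LAMP2 are lowest in both 24 h DHT libraries, where SQSTM1 is at 366 and 373 CPM, while MCOLN1 is highest there at 13 and 12.1 CPM.

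The kinases ULK1 and ULK2 and their partner ATG13 start autophagosome formation. ATG13 was at 14.8, 14.8 and 14.7 RPKM in siControl vehicle, 16.0, 15.8 and 15.8 in siControl enzalutamide, 8.93, 8.79 and 9.03 in siGATA2 vehicle and 9.25, 9.27 and 8.87 in siGATA2 enzalutamide. All siGATA2 libraries lay below all siControl libraries. With siGATA2 the log2 fold change was -0.72 in vehicle and -0.79 under enzalutamide, with limma adjusted p of 1.72e-09 and 9.76e-10. Enzalutamide raised ATG13 by 0.10 in siControl cells (limma adjusted p 0.00336), and the interaction of -0.07 did not pass (limma adjusted p 0.133). Its rise of 0.16 at 24 h of 10 µM (edgeR adjusted p 0.0123) was lost without either enzalutamide 24 h library (edgeR adjusted p 0.110 and 0.0757) or vehicle replicate 1, where it was 0.09 (edgeR adjusted p 0.183). ULK1 fell with DHT at 24 h by 0.45 on the log2 scale (edgeR adjusted p 3.06e-05) and was called in no other comparison with vehicle or siControl.

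Nucleation of the membrane runs through a lipid kinase complex that holds BECN1 and ATG14, and through the WIPI proteins that read its product. BECN1 was at 37.9, 37.9 and 38.1 RPKM in siControl vehicle, 34.1, 32.8 and 33.3 in siControl enzalutamide, 53.4, 55.8 and 57.4 in siGATA2 vehicle and 55.4, 54.2 and 55.7 in siGATA2 enzalutamide. It was lower with enzalutamide in each siControl library and higher in each siGATA2 library than in any siControl library. In limma the changes were -0.18 with enzalutamide in siControl cells (adjusted p 0.000285), 0.55 with siGATA2 in vehicle (adjusted p 3.71e-08) and 0.17 for the interaction (adjusted p 0.00753). BECN1 did not pass against the vehicle of the ligand experiment at either time, and its 24 h value was 0.09 (edgeR adjusted p 0.129). All 4 members of this group were higher in siGATA2 vehicle cells, where 24.2% of all genes were, with a median log2 fold change of 0.433.

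ATG2A, ATG9A and ATG9B move lipid to the growing membrane. ATG9B, the scarcer of the ATG9 pair, was at 1.12 and 0.812 CPM in vehicle and 1.81 and 1.81 after 24 h of DHT, and the groups did not overlap. Its log2 fold change of 0.87 (SE 0.293, edgeR adjusted p 0.0249) was lost without either DHT 24 h library, without vehicle replicate 2 and with the ZC2 run as vehicle replicate 1, with edgeR adjusted p between 0.0691 and 0.128. In siRNA cells ATG9B was at 1.69, 1.60 and 1.62 RPKM in siControl vehicle, 1.11, 1.24 and 1.10 in siControl enzalutamide, 1.17, 1.06 and 0.833 in siGATA2 vehicle and 0.922, 0.834 and 0.825 in siGATA2 enzalutamide. The siControl vehicle libraries were the highest. It fell by 0.48 on the log2 scale with enzalutamide in siControl cells (limma adjusted p 0.00429) and by 0.65 with siGATA2 in vehicle (limma adjusted p 0.000374), and the interaction did not pass (limma adjusted p 0.235).

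The conjugation enzymes, from ATG3 to ATG16L1, attach ATG8 proteins to lipid, and ATG4 proteases process and recycle them. Of these 8 members, 1 rose and 3 fell with enzalutamide in siControl cells, where 17.7% and 24.4% of all genes did. In siGATA2 vehicle cells 3 were higher and 5 lower than in siControl vehicle cells, where 24.2% and 31.4% of all genes were. ATG16L1, which places the conjugation machinery on the membrane, was at 5.51, 5.31 and 5.47 RPKM in siControl vehicle, 6.05, 6.32 and 6.37 in siControl enzalutamide, 3.29, 2.79 and 2.65 in siGATA2 vehicle and 2.85, 3.02 and 2.94 in siGATA2 enzalutamide. The siGATA2 libraries were all below the siControl libraries. With siGATA2 the log2 fold change was -0.88 in vehicle and -1.06 under enzalutamide, with limma adjusted p of 9.24e-07 and 2.26e-07. With enzalutamide in siControl cells it was 0.20 (limma adjusted p 0.0341), a call that ended with the replicate number as a block and without any of 5 siControl libraries, with limma adjusted p between 0.0569 and 0.0932.

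ATG4D was also lower in siGATA2 cells. It was at 19.6, 18.0 and 19.9 RPKM in siControl vehicle and 12.7, 13.7 and 11.5 in siGATA2 vehicle, groups that did not overlap, with a log2 fold change of -0.60 (limma adjusted p 1.45e-05). In the ligand experiment it was at 25.8 and 27.8 CPM in vehicle and 24.6 and 22.2 after 24 h of enzalutamide, with a log2 fold change of -0.19 (edgeR adjusted p 0.0351). That call was lost without enzalutamide 24 h replicate 2 (edgeR adjusted p 0.264), without vehicle replicate 2 (0.170), with the ZC1 run as vehicle replicate 1 (0.0960) and within the sequencing set (0.230). ATG5 and ATG12 were called lower in siGATA2 vehicle cells and in no other comparison.

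TFEB and TFE3 are the transcription factors of the set. TFEB was at 5.05, 5.02 and 5.72 RPKM in siControl vehicle, 4.80, 5.27 and 5.39 in siControl enzalutamide, 9.18, 8.74 and 7.94 in siGATA2 vehicle and 7.74, 8.10 and 7.83 in siGATA2 enzalutamide. The siControl groups overlapped and all siGATA2 libraries lay above them. Its log2 fold change was -0.03 with enzalutamide in siControl cells (limma adjusted p 0.779) and 0.70 with siGATA2 in vehicle (limma adjusted p 6.01e-06). Between ligands it was lower with enzalutamide than with DHT, by -0.38 at 24 h (edgeR adjusted p 0.00542), where the libraries were at 5.48 and 5.67 against 6.95 and 7.60 CPM.

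TFE3 was more abundant and changed with enzalutamide. It was at 23.7, 22.9 and 24.4 RPKM in siControl vehicle, 28.6, 29.5 and 29.4 in siControl enzalutamide, 26.8, 26.8 and 24.9 in siGATA2 vehicle and 25.8, 26.2 and 25.8 in siGATA2 enzalutamide. The siControl enzalutamide libraries were the highest. The log2 fold change in siControl cells was 0.30 (limma adjusted p 3.75e-05), and the interaction was -0.31 (limma adjusted p 0.000780). At 10 µM for 24 h the vehicle and enzalutamide libraries overlapped, at 61.4 and 64.3 against 68.4 and 63.4 CPM, and the log2 fold change of 0.07 did not pass (edgeR adjusted p 0.368).

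LAMP1 and LAMP2 are the main proteins of the lysosomal membrane. LAMP1 was at 160 and 169 CPM in vehicle, 179 and 177 after 24 h of enzalutamide and 150 and 148 after 24 h of DHT. The enzalutamide libraries were above and the DHT libraries below the vehicle libraries. The log2 fold changes were 0.12 (edgeR adjusted p 0.0213) and -0.14 (edgeR adjusted p 0.00401). The enzalutamide call was lost with DESeq2 (adjusted p 0.0756), with 2 other settings and without any of 5 libraries, in a range of adjusted p from 0.0519 to 0.245. Its value was 0.07 without vehicle replicate 1. LAMP2 was at 374 and 366 CPM in vehicle, 403 and 411 after 24 h of enzalutamide and 314 and 299 after 24 h of DHT, in the same order. Its log2 fold changes at 24 h were 0.14 (edgeR adjusted p 0.0138) and -0.27 (edgeR adjusted p 5.45e-05), and the first was lost within the sequencing set and without either enzalutamide 24 h library or vehicle replicate 2, with edgeR adjusted p from 0.0700 to 0.141.

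In the siRNA experiment LAMP1 was at 48.6, 48.0 and 49.1 RPKM in siControl vehicle, 52.6, 51.8 and 51.7 in siControl enzalutamide, 59.7, 60.4 and 62.1 in siGATA2 vehicle and 58.6, 57.6 and 61.4 in siGATA2 enzalutamide. All siGATA2 libraries were above the siControl libraries. In limma LAMP1 changed by 0.10 with enzalutamide in siControl cells (adjusted p 0.0102) and by 0.32 with siGATA2 in vehicle (adjusted p 1.60e-06), with an interaction of -0.14 (adjusted p 0.0193) that was lost without siGATA2 enzalutamide replicate 1 (adjusted p 0.0511). LAMP2 ranged from 33.3 to 35.1 RPKM in siControl vehicle and from 36.9 to 40.7 in siControl enzalutamide, a log2 fold change of 0.17 (limma adjusted p 0.00348), and its interaction of -0.12 did not pass (limma adjusted p 0.120). The LAMP1 promoter holds the most CACGTG matches among those printed, and the MAP1LC3B window holds none.

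LAMP3 is an inducible relative of these proteins, and the study itself named it from these same libraries, so what follows is no independent evidence of its direction. It was at 0.0128, 0.0129 and 0.0305 RPKM in siControl vehicle, 0.234, 0.362 and 0.553 in siControl enzalutamide, 0.00873, 0 and 0.0123 in siGATA2 vehicle and 0.0195, 0 and 0.0123 in siGATA2 enzalutamide. Every siControl enzalutamide library was above every other library, and the siGATA2 groups overlapped. On log2(RPKM + 0.1), enzalutamide raised LAMP3 by 1.97 (SE 0.193) in siControl cells (limma adjusted p 1.96e-05), and the value in siGATA2 cells was 0.05 (limma adjusted p 0.975). Between siGATA2 and siControl cells it was -0.15 in vehicle (limma adjusted p 0.558) and -2.08 under enzalutamide (limma adjusted p 5.07e-06). The interaction was -1.93 (SE 0.274, limma adjusted p 0.000651).

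The added 0.1 RPKM understates folds of so scarce a transcript. With 0.01 RPKM added the siControl change was 3.75 and with 1 RPKM added 0.43, and the interaction was -3.53 and -0.43, with the same calls. Even the raised level, 0.383 ± 0.161 RPKM (SD, n = 3), lay below the siControl vehicle level of the other 35 members.

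LAMP3 was at the limit of detection in the ligand experiment. Its rounded estimated counts were 2 and 1 in vehicle, 1 and 1 after 4 h and 6 and 13 after 24 h of enzalutamide, 0 and 3 after 4 h and 1 and 5 after 24 h of DHT. In CPM the 24 h enzalutamide libraries, at 0.118 and 0.262, were above the vehicle libraries, at 0.0330 and 0.0254, and overlapped the 24 h DHT libraries, at 0.0183 and 0.127. Pooled over replicates, 19 counts against 3 in vehicle gave a ratio of rates of 6.31 (exact 95% interval 1.86 to 33.3), and 19 against 6 after 24 h of DHT gave 2.96 (1.14 to 9.07). These intervals cover counting error only. Without the filter on low counts the log2 fold change against vehicle was 2.55 (edgeR adjusted p 0.0299). Against DHT at 24 h it was 1.51 and did not pass (edgeR adjusted p 0.129). That difference was 0.55 or 3.20 without DHT 24 h replicate 1 or 2. In the other settings in which LAMP3 could be tested, a group held a lone library, so the library with 13 counts could meet the filter by itself. The value against vehicle was 2.77 and 2.42 without vehicle replicate 1 or 2 and 1.84 within the sequencing set, where it did not pass. LAMP3 could not be tested without enzalutamide 24 h replicate 2, the library with 13 counts. How far the rise rests on that library was not tested.

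MCOLN1, a calcium channel of the lysosome, changed in siControl cells in the direction opposite to LAMP1, LAMP2 and LAMP3. It was at 5.60, 5.30 and 5.53 RPKM in siControl vehicle, 2.87, 2.79 and 2.56 in siControl enzalutamide, 3.76, 3.82 and 4.44 in siGATA2 vehicle and 3.70, 3.63 and 3.67 in siGATA2 enzalutamide. The siControl vehicle libraries were the highest, the siControl enzalutamide libraries the lowest, and the siGATA2 groups did not overlap by a small margin. It fell by 0.97 (SE 0.0635) on the log2 scale with enzalutamide in siControl cells (limma adjusted p 1.15e-06), while the value in siGATA2 cells was -0.12 (limma adjusted p 0.540). The interaction of 0.85 (SE 0.0898, limma adjusted p 0.000103) was the highest of the members. At 10 µM it was at 8.99 and 11.5 CPM in vehicle and 9.74 and 9.24 after 24 h, within the spread of the vehicle libraries (edgeR adjusted p 0.534). With DHT for 24 h it was at 13 and 12.1 CPM, a log2 fold change of 0.32 (edgeR adjusted p 0.0164) that was lost without vehicle replicate 1 (0.14, edgeR adjusted p 0.255), without DHT 24 h replicate 1 (0.26, edgeR adjusted p 0.128) and with the ZC2 run as vehicle replicate 1 (0.19, edgeR adjusted p 0.0728). With single libraries left out it ran from 0.14 to 0.49. Its promoter, like that of LAMP1, holds TCACGTGA.

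ATP6V1H is a subunit of the proton pump that acidifies the lysosome. It was at 23.8, 22.5 and 23.3 RPKM in siControl vehicle, 28.1, 26 and 27.6 in siControl enzalutamide, 37.8, 38.3 and 39.2 in siGATA2 vehicle and 38.3, 37.9 and 38.9 in siGATA2 enzalutamide. The siGATA2 groups overlapped each other well above the siControl groups. In limma the changes were 0.23 with enzalutamide in siControl cells (adjusted p 0.000206), 0.73 with siGATA2 in vehicle (adjusted p 1.75e-08) and -0.23 for the interaction (adjusted p 0.00381). With DHT for 24 h it fell by 0.28 on the log2 scale (edgeR adjusted p 0.000153).

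**Figure D4:**
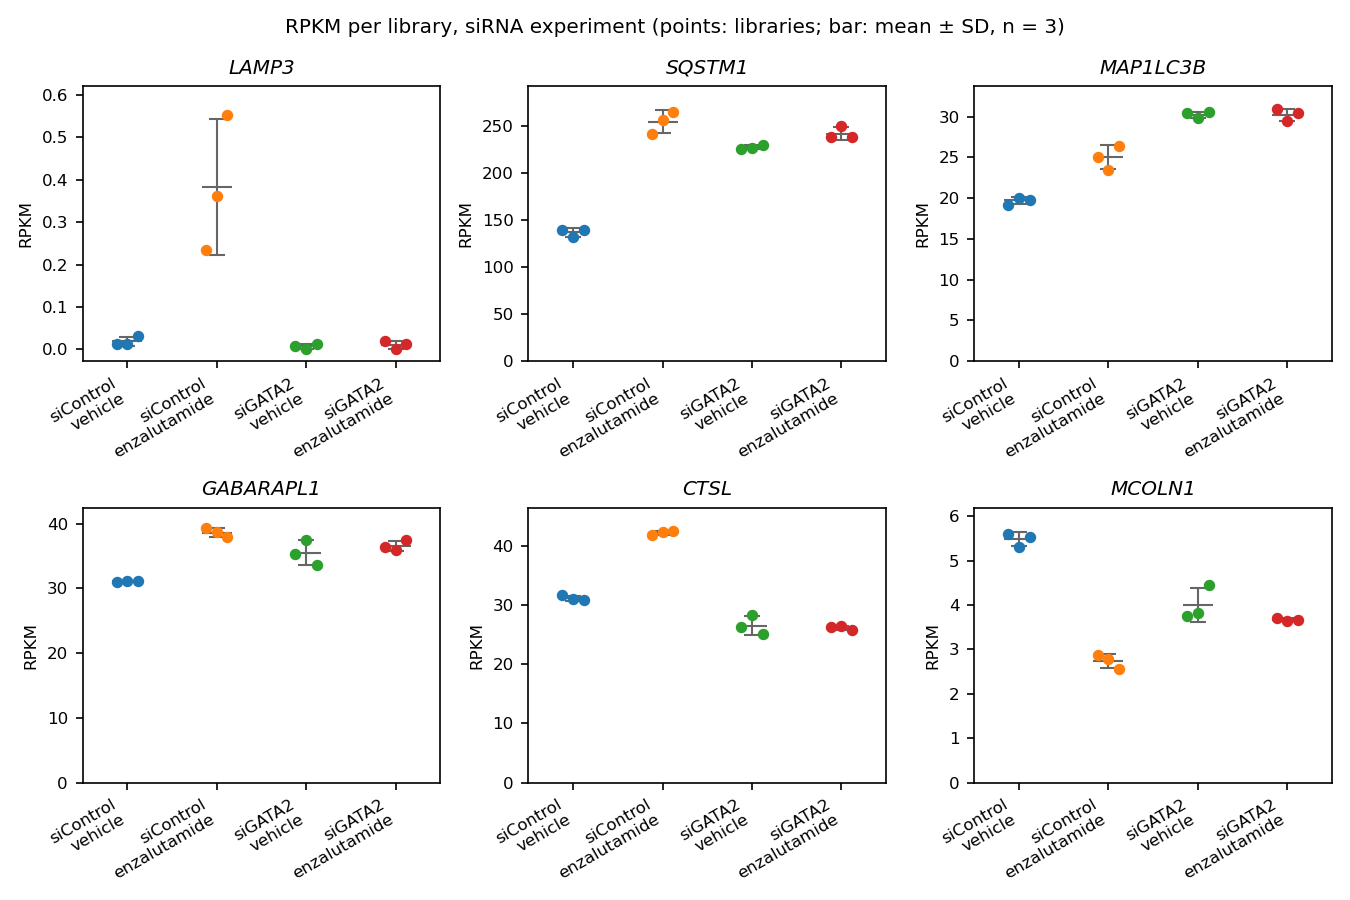
RPKM of 6 members in each library of the siRNA experiment, with points for libraries and a bar for the mean and SD of 3 replicates. LAMP3 is high in the siControl enzalutamide libraries alone (0.234 to 0.553 RPKM), SQSTM1, MAP1LC3B and GABARAPL1 are higher in both siGATA2 groups than in siControl vehicle, and MCOLN1 is lowest in siControl enzalutamide.

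Of the hydrolases, CTSB, CTSD and CTSL are cathepsin proteases and HEXA breaks down glycolipids. All 4 rose with enzalutamide at 24 h and in siControl cells, where 16.4% and 17.7% of all genes did, with median log2 fold changes of 0.182 and 0.29. All 4 had a negative interaction, where 10.8% of all genes did. CTSL was at 31.6, 31 and 30.8 RPKM in siControl vehicle, 41.7, 42.2 and 42.4 in siControl enzalutamide, 26.2, 28.3 and 25.1 in siGATA2 vehicle and 26.2, 26.4 and 25.7 in siGATA2 enzalutamide. The siControl enzalutamide libraries were the highest and the siGATA2 libraries, which overlapped, the lowest. The log2 fold change was 0.43 with enzalutamide in siControl cells (limma adjusted p 7.07e-06), -0.23 with siGATA2 in vehicle (limma adjusted p 0.000277) and -0.45 for the interaction (limma adjusted p 0.000178). In the ligand experiment CTSL was at 64.6 and 63.6 CPM in vehicle, 72.8 and 75.3 after 24 h of enzalutamide and 70.7 and 70.0 after 24 h of DHT. It rose with both ligands, by 0.21 and 0.13 (edgeR adjusted p 0.00150 and 0.0150), and the DHT call was lost with library size alone as the scaling (0.07, edgeR adjusted p 0.142), with only the libraries compared and without DHT 24 h replicate 1 or vehicle replicate 2 (edgeR adjusted p 0.0627 to 0.0745).

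CTSD was at 117, 104 and 115 RPKM in siControl vehicle, 138, 140 and 135 in siControl enzalutamide, 175, 174 and 163 in siGATA2 vehicle and 168, 178 and 163 in siGATA2 enzalutamide. Each siGATA2 library was above each siControl library. In limma the changes were 0.30 with enzalutamide in siControl cells (adjusted p 0.000583), 0.61 with siGATA2 in vehicle (adjusted p 1.39e-06) and -0.31 for the interaction (adjusted p 0.00818). At 10 µM it rose by 0.19 at 24 h (edgeR adjusted p 0.00907), a call lost without either enzalutamide 24 h library or vehicle replicate 1, with edgeR adjusted p from 0.0518 to 0.136 and a value of 0.12 without the vehicle library.

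**Figure D5:**
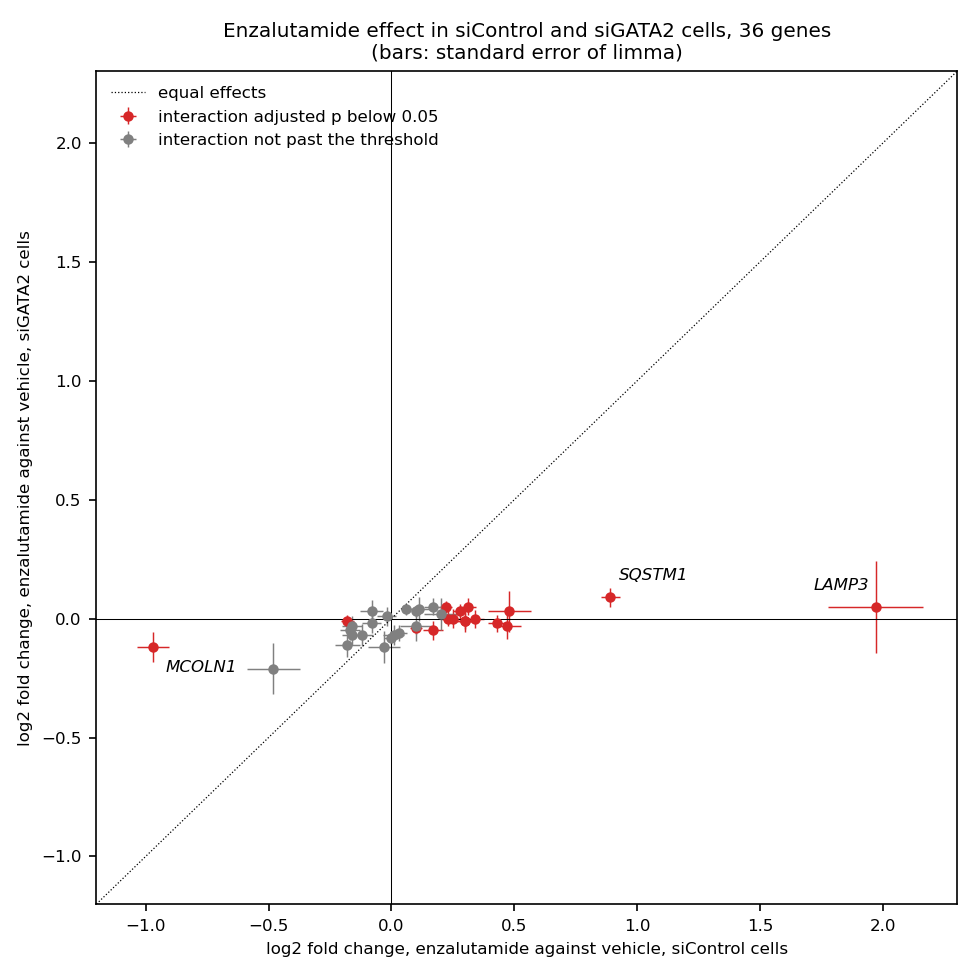
Log2 fold change of each of the 36 genes with 25 µM enzalutamide in siControl cells (horizontal) and in siGATA2 cells (vertical), with the standard errors from limma as bars and a dotted line where the effects would be equal. The points spread from -0.97 to 1.97 along the horizontal axis and from -0.21 to 0.09 along the vertical axis, and 17 of the 36 are marked for an interaction past the threshold.

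The enzalutamide effects of the experiments rest on separate libraries, so they can be set beside each other. Of 35 members, 25 (71.4%) had the same sign at 10 µM for 24 h and at 25 µM in siControl cells, against 70.6% of 15404 genes tested in both. Pearson's r across the members was 0.52 and Spearman's rho 0.59, against 0.58 and 0.57 across all genes. These are correlations across genes, which are not independent replicates. There were 14 members called in both, and all 14 had the same sign, as did 95.6% of the 3729 genes called in both over the whole table. They were MAP1LC3A, MAP1LC3B, GABARAPL1, SQSTM1, NBR1, ATG13, WIPI1, ATG3, LAMP1, LAMP2, CTSB, CTSD, CTSL and HEXA, of which ATG3 fell.

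Other genes of the pathway were read from 5 lists. Among 42 other lysosomal hydrolases and their cofactors, 39 were tested with the ligands and 24 rose and 3 fell with enzalutamide at 24 h, where 16.4% and 17.0% of all genes did. In siControl cells 25 of 42 rose and 9 fell, where 17.7% and 24.4% of all genes did, with a median log2 fold change of 0.21. NEU1, a sialidase, was at 2.42, 2.22 and 2.40 RPKM in siControl vehicle, 3.54, 3.54 and 3.54 in siControl enzalutamide, 5.69, 5.87 and 5.52 in siGATA2 vehicle and 5.64, 6.08 and 5.70 in siGATA2 enzalutamide. All enzalutamide siControl libraries exceeded the vehicle libraries, and the siGATA2 groups overlapped. Its log2 fold change was 0.57 with enzalutamide in siControl cells (limma adjusted p 3.54e-06) and 1.24 with siGATA2 in vehicle (limma adjusted p 3.87e-09).

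Among 32 other autophagy genes, 8 rose and 6 fell with enzalutamide in siControl cells, where 17.7% and 24.4% of all genes did. With the ligands 30 were tested. At 24 h of 10 µM 9 rose and 1 fell, where 16.4% and 17.0% of all genes did, and at 24 h of DHT 8 rose and 10 fell, where 26.9% and 23.2% did. OPTN, a cargo receptor, was at 9.46 and 10.1 CPM in vehicle, 15.7 and 15.1 after 24 h of enzalutamide and 4.54 and 4.10 after 24 h of DHT, with no overlap. Its log2 fold changes were 0.66 (edgeR adjusted p 1.33e-05) and -1.16 (edgeR adjusted p 1.47e-07). BNIP3L, a receptor for mitochondria, was at 55.5, 57.7 and 56.9 RPKM in siControl vehicle and 118, 118 and 115 in siGATA2 vehicle. That is a log2 fold change of 1.05 (limma adjusted p 3.76e-09). With enzalutamide in siControl cells BNIP3L fell by 0.26 (limma adjusted p 0.000253). At 10 µM it was 0.13 higher than vehicle at 4 h (edgeR adjusted p 0.0321), and 0.06 at 24 h did not pass (edgeR adjusted p 0.215). With DHT for 24 h its log2 fold change was -0.42 (edgeR adjusted p 4.96e-07).

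Among the other subunits of the proton pump, 23 were tested in siRNA cells and 3 rose and 4 fell with enzalutamide in siControl cells, where 17.7% and 24.4% of all genes did. In siGATA2 vehicle cells 15 were higher and 1 lower than in siControl vehicle cells, where 24.2% and 31.4% of all genes were, with a median of 0.284. ATP6AP1, an accessory subunit, was at 74.7, 69.2 and 73.0 RPKM in siControl vehicle and 150, 148 and 147 in siGATA2 vehicle, a log2 fold change of 1.04 (limma adjusted p 1.15e-09). ATP6V0A4 was scarce, at 0.428, 0.412 and 0.375 RPKM against 0.169, 0.156 and 0.119, and was lower by the fitted value of -1.03 (limma adjusted p 3.26e-06). The genes ATP6V1G3 and, in the ligand tables, ATP6V0D2 were not found. Of 16 other lysosomal membrane genes tested, 5 rose and 5 fell with enzalutamide in siControl cells, where 17.7% and 24.4% of all genes did. CD68 was at 3.84, 3.54 and 3.82 RPKM in siControl vehicle and 11.8, 12.2 and 10.5 in siGATA2 vehicle, a log2 fold change of 1.60 (limma adjusted p 1.19e-08). CD68 was not on the macrophage and leukocyte list above, so the sums given for that list leave it out.

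Among 28 genes of nutrient sensing, 14 rose and 5 fell with enzalutamide in siControl cells, where 17.7% and 24.4% of all genes did. Of 27 tested with the ligands 13 rose at 4 h of enzalutamide, where 6.94% of all genes did. DDIT4, which restrains mTORC1 (the kinase complex that blocks autophagy when nutrients are plentiful), was at 173 and 171 CPM in vehicle and 290 and 290 after 4 h of enzalutamide, a log2 fold change of 0.75 (edgeR adjusted p 3.27e-08). It was at 184, 157 and 184 RPKM in siControl vehicle, 538, 600 and 627 in siControl enzalutamide, 330, 338 and 269 in siGATA2 vehicle and 324, 352 and 324 in siGATA2 enzalutamide. The siGATA2 groups overlapped between the siControl groups. Its log2 fold change was 1.75 with enzalutamide in siControl cells (limma adjusted p 3.62e-07), with an interaction of -1.65 (limma adjusted p 2.23e-05). SESN2, another inhibitor of mTORC1, was at 41.8 and 45.3 CPM in vehicle and 91.7 and 86.3 after 4 h of enzalutamide, a log2 fold change of 1.03 (edgeR adjusted p 1.64e-07). In siControl cells it went from 11.4, 10.7 and 11.2 RPKM to 20.3, 21.4 and 22.0, a change of 0.93 (limma adjusted p 1.07e-07) with an interaction of -0.91 (limma adjusted p 5.59e-06). SESN1, a relative of SESN2, was at 15.8, 16.5 and 15.4 RPKM in siControl vehicle and 8.32, 8.29 and 8.34 in siGATA2 vehicle, a log2 fold change of -0.93 (limma adjusted p 1.36e-09).

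Stress and androgen response genes were read beside the set. Of 8 stress response genes, 7 rose with enzalutamide at 4 h, at 24 h and in siControl cells, each time without NFE2L2, where 6.94%, 16.4% and 17.7% of all genes did. Their median was 0.706, 0.81 and 1.39 on the log2 scale. ATF4, a transcription factor of the amino acid response, was at 123, 123 and 126 RPKM in siControl vehicle, 278, 282 and 298 in siControl enzalutamide, 93.2, 93.4 and 88.4 in siGATA2 vehicle and 99.5, 105 and 100 in siGATA2 enzalutamide. The siControl enzalutamide libraries stood far above the rest. The interaction for ATF4 was -1.06 (limma adjusted p 9.76e-07), and 7 of the 8 genes had a negative interaction, where 10.8% of all genes did, with a median of -1.246. Of the 5 androgen response genes, 5 rose at 24 h of DHT, where 26.9% of all genes did, and 5 fell at 24 h of enzalutamide, where 17.0% did. KLK3 went from 259 and 254 CPM in vehicle to 2095 and 2139 after 24 h of DHT and 109 and 111 after 24 h of enzalutamide. TMPRSS2 went from 75.6 and 74.7 CPM to 379 and 383 and to 57.9 and 61.1. Whether these responses bear on the autophagy and lysosome genes was not tested.

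Some symbols may collect reads of other genes. In the RefSeq annotation 21 of the 36 members overlap another gene and 10 overlap a protein-coding one, among them SQSTM1 with MGAT4B and MRNIP, GABARAP with PHF23, BECN1 with CNTD1, ATG13 with HARBI1, ATG4D with KRI1 and ATG9B with NOS3. The libraries were directional, but whether the counting used the strand is not stated. MAP1LC3B and MAP1LC3B2 are nearly identical in sequence, so reads may be shared between them. RNA levels do not measure autophagic flux, which was not assayed in these libraries.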

How the data were processed

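The ligand tables hold estimated counts per gene and the siRNA tables hold RPKM, both deposited by the authors, whose notes name TopHat2 2.0 on hg19 and Partek. The siRNA files are named as read counts but their values behaved as RPKM. Libraries were directional poly(A) libraries. Estimated counts were rounded, the 3 runs of vehicle replicate 1 were summed, TMM factors and filterByExpr were applied, and edgeR 4.0.16 quasi-likelihood tests were run (10 libraries). RPKM were tested as log2(RPKM + 0.1) with limma 3.58.1 (trend on), keeping genes detected in 3 or more libraries. DESeq2 1.42.0, R 4.3.3, Python 3.11.15, pandas 2.3.3, scipy 1.17.1 and matplotlib 3.10.9 were also used. The fits were tested on simulated data. Adjusted p values are Benjamini-Hochberg over all genes tested.

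The members and lists were chosen with earlier results of these data known. The rule for naming genes took members called with at least a 1.5-fold change in any comparison, plus LAMP1, LAMP2, LAMP3, TFEB and TFE3, and pathway genes called with at least a log2 change of 1.0 against vehicle or siControl. Other members given by value, such as ULK1, ATG5 and ATG12, were named after values were seen. A pathway gene that met the rule is not reported here. Replicate numbers were checked for pairing, and residuals of same-numbered libraries correlated from -0.176 to 0.143 (ligand) and from -0.342 to 0.28 (siRNA). Of the siRNA groups, only siControl and siGATA2 enzalutamide libraries had a correlation over 0.1 in all 3 pairs (0.113, 0.241 and 0.148). In the ligand groups, DHT 24 h with vehicle (0.143) and enzalutamide 24 h with 4 h (0.101) also exceeded 0.1. Differently numbered siRNA libraries were not correlated, so these values cannot show whether the numbers mark pairs. With the replicate block the comparison of siGATA2 with siControl cells under enzalutamide had 26 member calls, and 26 without. Limits are 2 or 3 replicates of 1 line and vehicle libraries shared by all comparisons with vehicle. Both enzalutamide groups and the DHT 4 h group each sit under 1 column prefix of unstated meaning. The vehicle columns may be runs or cultures. Further limits are siRNA pools with partial silencing and an RPKM scale on which precision at low levels is unknown.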

Additional observations from a re-analysis of the deposited data

Results flagged for a closer look

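The values listed here are those of genes met by the naming rule that had passed a test of whether an effect differed between siControl and siGATA2 cells or between times. Other members also passed. The interaction was negative for CTSB, HEXA and WIPI1. From 4 h to 24 h of enzalutamide CTSB rose and ATG3 and WIPI2 fell. From 4 h to 24 h of DHT ATG4B and ATG9A rose, and ATG10, ATG14, ATG2A, ATG3, CTSB, HEXA and ULK1 fell. By interaction of GATA2 silencing with enzalutamide, the limma log2 values were MAP1LC3A -0.45, MAP1LC3B -0.34, GABARAP -0.23, GABARAPL1 -0.27, SQSTM1 -0.81, NBR1 -0.17, BECN1 0.17, TFE3 -0.31, LAMP1 -0.14, LAMP3 -1.93, MCOLN1 0.85, ATP6V1H -0.23, CTSD -0.31 and CTSL -0.45.

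From 4 h to 24 h of enzalutamide the edgeR values were MAP1LC3A 0.44, MAP1LC3B 0.12, GABARAP 0.14, GABARAPL1 0.28, SQSTM1 0.26 and CTSL 0.13. The CTSL call was lost under 14 alternatives, with DESeq2 (adjusted p 0.124), the replicate block (edgeR adjusted p 0.0571) and 9 of the 10 libraries left out among them. The MAP1LC3B call was lost under 12, with DESeq2 (adjusted p 0.122), the replicate block (edgeR adjusted p 0.0527) and 7 libraries left out among them. The GABARAP and MAP1LC3A calls were lost under 5 and 3 libraries left out, with edgeR adjusted p from 0.0532 to 0.169 and from 0.0525 to 0.0721.

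From 4 h to 24 h of DHT they were MAP1LC3B -0.58, GABARAP -0.21, GABARAPL1 -0.43, GABARAPL2 -0.17, SQSTM1 -0.36, NBR1 -0.38, ATG9B 0.83, ATG16L1 0.22, LAMP1 -0.17, LAMP2 -0.32, ATP6V1H -0.31, CTSD -0.13 and CTSL 0.13. Lost calls were CTSL under 6 alternatives (edgeR adjusted p 0.0620 to 0.122, with a value of 0.08 when scaled by library size alone), ATG16L1 under 4 (edgeR adjusted p 0.0612 to 0.297, the last at 0.10 without DHT 24 h replicate 2), CTSD under 3 (edgeR adjusted p 0.0814 to 0.152) and GABARAPL2 under 2 (edgeR adjusted p 0.0931 and 0.0966). ATG9B was lost under 4, with DESeq2 (adjusted p 0.0659) among them and adjusted p up to 0.167 in edgeR.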

How the results depend on the processing

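Of 3003 alternative values for 143 gene results, 2842 stayed the same, 159 were weaker, 0 were stronger and 2 reversed. The reversed values were both for LAMP3 with enzalutamide in siGATA2 cells, where 0.05 became -0.01 without siGATA2 enzalutamide replicate 1 and -0.00 without siGATA2 vehicle replicate 2. None of the 3 passed the limma test.

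The member count for enzalutamide at 4 h, 6, became 0 with only the conditions compared, 2 within the sequencing set and 2 without vehicle replicate 1. For enzalutamide at 24 h, 17 became 10 within the sequencing set, 11 without enzalutamide 24 h replicate 1 and 8 without replicate 2. For DHT at 4 h, 0 in edgeR became 2 with no filter on low counts and 1 with every vehicle column a sample, without DHT 4 h replicate 1 or without vehicle replicate 1. For enzalutamide against DHT at 4 h, 5 became 3 with DESeq2, 2 with only the conditions compared, 2 without DHT 4 h replicate 1 and 3 without replicate 2. From 4 h to 24 h of enzalutamide, 9 became 4 or 3 without enzalutamide 24 h replicate 1 or 2 and 5 without enzalutamide 4 h replicate 2. The cause was not tested.

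Leaving out single libraries gave member counts of 2 to 7 (enzalutamide 4 h), 8 to 18 (24 h), 0 to 1 (DHT 4 h), 17 to 22 (24 h), 2 to 7 and 23 to 28 (enzalutamide against DHT at 4 h and 24 h), 3 to 11 and 15 to 24 (24 h against 4 h of enzalutamide and DHT), 23 to 27 (siControl), 32 to 34 and 25 to 27 (siGATA2 against siControl in vehicle and under enzalutamide) and 15 to 17 (interaction). In siGATA2 cells limma gave 0 each time. LAMP3 ranged from 1.73 to 2.21 in siControl cells, -0.01 to 0.12 in siGATA2 cells, -0.18 to -0.08 and -2.32 to -1.83 between siGATA2 and siControl, and -2.17 to -1.68 for the interaction.

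With the replicate number as a block the member counts were 4, 16, 0, 21, 5, 27, 7 and 21 in the ligand comparisons and 24, 0, 33, 26 and 17 in the siRNA comparisons. Between siGATA2 and siControl cells under enzalutamide the block changed no member call. Crossing the replicate pairs gave 4 member calls for enzalutamide against DHT at 4 h, with 1177 genes up and 1342 down. That fit used the 4 compared libraries alone, while the block counts above used all 10. An uncrossed block on those 4 libraries was not fitted, so the count cannot be set against the 5 above. Over all genes, the 1080 rises at 4 h of enzalutamide became 401 with only the conditions compared and 334 within the sequencing set, and the 2549 at 24 h became 1679 with DESeq2 and 1318 within the sequencing set. With single libraries left out they ran from 486 to 1695 at 4 h and from 1310 to 3014 at 24 h. The 45 rises and 39 falls in siGATA2 cells became 14 and 15 with the replicate block.

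The comparisons within the sequencing set and the crossed pairing were added after the data had been seen.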
